A study of Rattus norvegicus with 2 samples.

Results

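The axon guidance ligands and receptors are secreted or membrane-bound cues and the receptors that read them. Members were the genes whose current rat symbol, found by matching the RefSeq accessions of the array probes, belongs to the semaphorin (Sema3 to Sema7), plexin, neuropilin, ephrin, Eph, Slit, Robo, netrin or Unc5 families. There were 52 of them among 15168 genes with a symbol on the array, carried by 67 probes. They comprised 23 genes of the semaphorin group (with plexins and neuropilins), 16 of the ephrin group (with Eph receptors), 5 of the Slit group (with Robo receptors) and 8 of the netrin group (with Unc5 receptors). One of these, Unc5cl, fits the name pattern but shares only the C-terminal part of the Unc5 receptors. A further 18 symbols of these families in the RefSeq table, among them Plxna1, Plxnb1, Plxnc1, Plxnd1, Ephb3, Ephb4, Sema6a and Robo4, matched no probe and were not analysed here.

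The cells were bone marrow-derived stromal cells, which are the adherent cells of marrow other than blood cells. The control group came from wild type Sprague-Dawley rats. The transgenic group came from double transgenic rats with the same genetic background, whose genome holds human angiotensinogen and human renin. Both cultures were started with 150000 cells in each well and stayed below confluency. Age, number of animals and the promoters of the transgenes are not given in the sources used here. Each group had 1 array, so every value below describes these 2 arrays, no test between the groups was possible and no p-value is given. The only error that could be measured is technical. Since the RNA is from bulk cultures, fewer cells of a type and less RNA per cell cannot be told apart.

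Guidance cues were first described in growing axons, which they attract or repel. Semaphorins signal through plexins, with neuropilins as co-receptors for most secreted members. Ephrins are bound to the membrane and activate Eph receptor kinases on the neighbouring cell, the A ephrins being anchored by a lipid and the B ephrins spanning the membrane. Slits bind Robo receptors, and netrins bind Dcc, neogenin and Unc5 receptors. The same cues act outside the nervous system on adhesion, migration and vessel growth, and stromal cells of marrow are known to make several of them.

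The cells carried stromal markers on both arrays. Of 16 stromal markers, 14 were well above background on both arrays, among them Col1a1, Col1a2, Pdgfrb and Col3a1. Vcam1 was well above background on the transgenic array only and Lepr on neither. The leukocyte markers Ptprc and Itgam and the endothelial markers Pecam1, Kdr, Tek and Tie1 did not pass that mark on either array. Other markers of these cells did: 10 of 15 macrophage markers passed on both arrays and 3 in control only, among them Lyz2 (8372 units in control), and the endothelial markers Erg, Cdh5, Flt1 and Sox18 passed on both arrays. The slide (1) and the scan (1) were the same for both arrays. The share of probes well above background was 60.2% in control and 60.8% in transgenic. Probe signals had a 75th percentile of 905 units in control, against 1079.7 in transgenic. In what follows, transgenic signals are divided by 1.19 so that both arrays share the control's 75th percentile, and a fold is the ratio of the signals given. A difference is the log2 of transgenic over control on this scale.

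Of the 52 members, 31 were well above background on both arrays, 5 on the transgenic array only, 4 on the control array only and 12 on neither. The signals of these 12 ranged from 3.48 to 21.2 units in control and from 3.02 to 8.25 in transgenic. Among the 31, 7 were at least 2-fold higher in transgenic (Efna2, Sema4c, Ntn4, Sema4b, Efna1, Epha2 and Slit3) and 3 were at least 2-fold lower (Sema3d, Sema7a and Efnb1). By the same size rule 10.5% of the 15501 genes or unmatched transcripts above background on both arrays were higher and 10.3% were lower, against 22.6% and 9.68% of the members. The members' median difference was 0.08 log2, and that of all genes was -0.07 log2. A member above background on 1 array only has a bound of its fold. It is taken against its own dim signal or, if higher, the lowest signal of any probe that passed on that array. That lowest signal was 15.3 units for control and 13.4 for transgenic. Where the own dim signal was taken, as for Sema3e and Sema4f, the bound is the plain ratio of the signals and not a lower limit. By this bound Ntn1 and Sema6d were at least 2-fold higher, where 2.5% of all genes above background on 1 array or both were, and Robo2, Sema3e and Sema4f were at least 2-fold lower, where 2.86% were. Together 15 of 40 measured members (37.5%) were past 2-fold, against 24.1% of all such genes.

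All of these counts take the bulk of genes as the reference. When the arrays were instead scaled on the E1A spike-in probes, which read control RNAs added to the sample, the median of all genes moved to 1.04 log2. On that scale 19 of the 31 members were at least 2-fold higher and 2 lower, and Efnb1 and Sema4f were within 2-fold. The amounts of spike-in RNA added are not given in the sources used here.

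**Figure D1:**
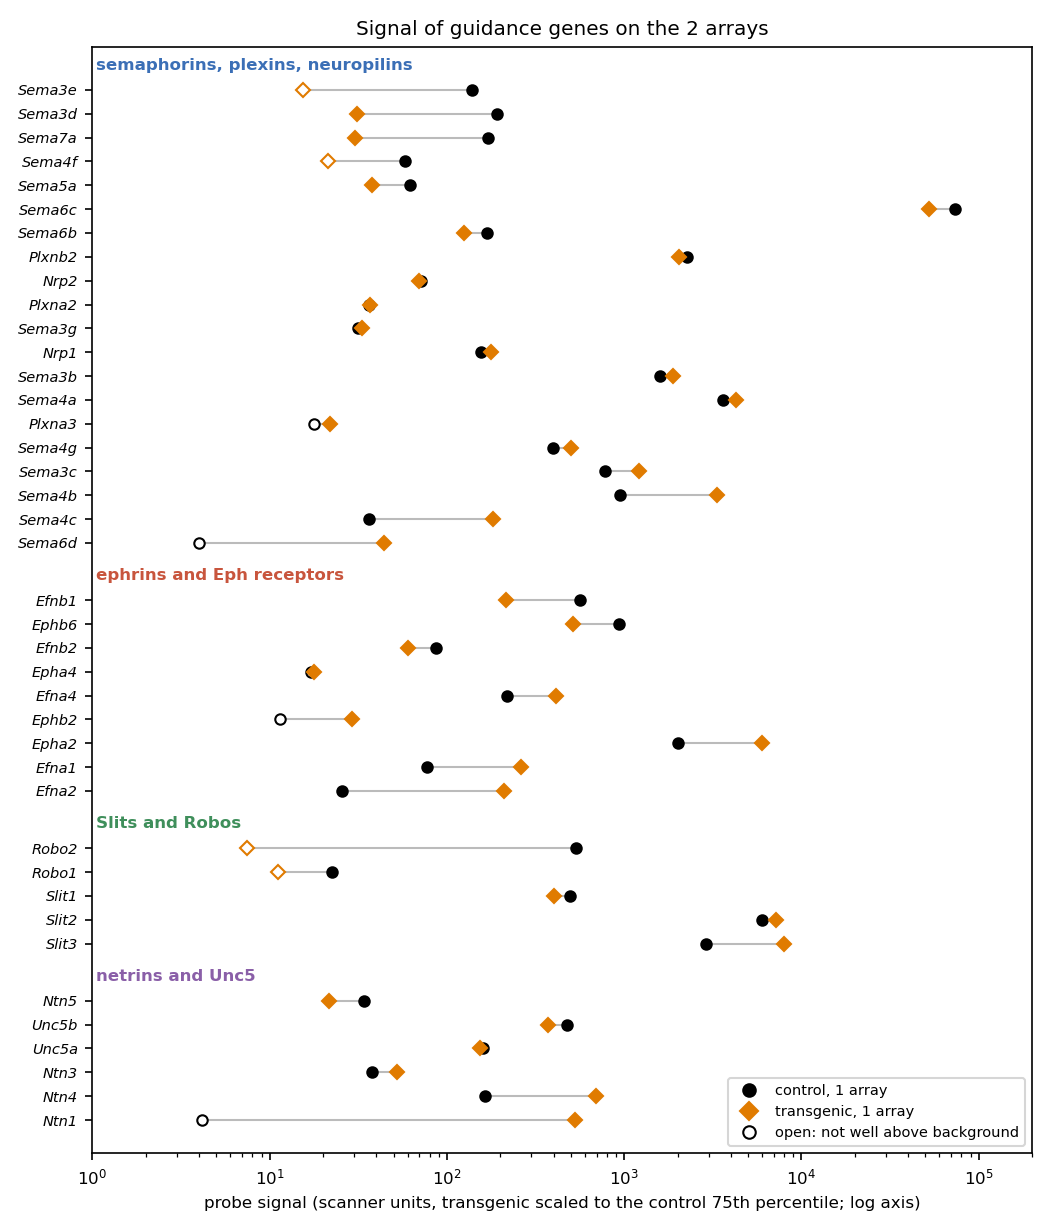
Probe signal of the 40 members well above background on at least 1 array, in scanner units on a log axis, with 1 circle for the control array and 1 diamond for the transgenic array, and open symbols where the probe was not well above background. Robo2 (532 units in control, 7.49 in transgenic) and Ntn1 (4.17 and 531) have the widest gaps, while the plexins and neuropilins lie close together.

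The promoters of 6 members with large differences in either direction are printed so that the upstream sequence can be set beside the expression values. Each is the 250 bases before the RefSeq start of the gene in the rat assembly GRCr8, 5′ to 3′ on the gene's strand, with capitals marking motif matches on either strand. The motifs searched were the TATA box (TATAAA), the GC box (GGGCGG), AP-1 (TGANTCA), the CRE (TGACGTCA), the hypoxia response core (ACGTG or GCGTG), and the NF-kB and CArG consensus motifs. Adjacent or overlapping matches run together.
Higher in transgenic:
Efna2 (chr7:10177720-10177969, minus strand): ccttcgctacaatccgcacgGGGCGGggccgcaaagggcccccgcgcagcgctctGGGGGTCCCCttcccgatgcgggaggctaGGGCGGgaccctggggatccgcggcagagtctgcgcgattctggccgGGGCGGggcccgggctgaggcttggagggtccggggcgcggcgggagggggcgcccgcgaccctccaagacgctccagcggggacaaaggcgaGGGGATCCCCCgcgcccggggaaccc
Ntn4 (chr7:30073387-30073636, plus strand): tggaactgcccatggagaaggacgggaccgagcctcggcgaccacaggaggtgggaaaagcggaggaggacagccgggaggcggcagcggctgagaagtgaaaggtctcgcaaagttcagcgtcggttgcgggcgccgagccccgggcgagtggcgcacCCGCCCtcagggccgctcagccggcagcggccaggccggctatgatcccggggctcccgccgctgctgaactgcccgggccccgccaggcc
Sema4c (chr9:46297999-46298248, minus strand): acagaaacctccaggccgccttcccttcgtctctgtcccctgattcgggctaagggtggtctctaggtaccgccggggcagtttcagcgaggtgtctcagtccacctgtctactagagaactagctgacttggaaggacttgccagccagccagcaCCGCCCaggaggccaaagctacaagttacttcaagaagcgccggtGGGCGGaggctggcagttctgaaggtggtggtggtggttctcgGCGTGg
Lower in transgenic:
Robo2 (chr11:26526413-26526662, minus strand): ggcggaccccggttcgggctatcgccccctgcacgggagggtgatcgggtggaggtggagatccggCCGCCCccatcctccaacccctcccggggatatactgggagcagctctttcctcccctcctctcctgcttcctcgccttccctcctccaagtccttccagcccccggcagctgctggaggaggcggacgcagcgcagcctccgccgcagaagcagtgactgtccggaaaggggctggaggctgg
Sema3d (chr4:23460972-23461221, minus strand): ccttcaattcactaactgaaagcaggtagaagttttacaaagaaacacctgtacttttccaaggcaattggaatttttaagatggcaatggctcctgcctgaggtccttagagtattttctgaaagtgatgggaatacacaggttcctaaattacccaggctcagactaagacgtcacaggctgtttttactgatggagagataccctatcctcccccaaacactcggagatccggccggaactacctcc
Sema3e (chr4:21510375-21510624, minus strand): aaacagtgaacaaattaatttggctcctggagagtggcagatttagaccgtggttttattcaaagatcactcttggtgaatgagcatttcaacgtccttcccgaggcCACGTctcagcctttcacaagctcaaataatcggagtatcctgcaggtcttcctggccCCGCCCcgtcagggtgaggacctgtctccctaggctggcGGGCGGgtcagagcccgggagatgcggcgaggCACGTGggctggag
The capitals in Efna2 mark 3 GC boxes and 3 NF-kB matches, some of them overlapping. Ntn4 and Robo2 each hold 1 GC box, Sema4c holds 2 GC boxes and 1 hypoxia response core, and Sema3e holds 2 GC boxes and 3 matches to the hypoxia core counted on both strands. Sema3d holds none of these motifs in this window.

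RefSeq promoter entries were matched for 41 of the 52 members, with 42 promoters in all since Robo1 has 2. The GC box stood in 8 of 8 promoters of members past 2-fold in the higher direction, in 3 of 6 of those in the lower direction and in 8 of 20 promoters of members within 2-fold. It stood in 57.1% of promoters of all genes above background on 1 array or both, in 58.3% of those past 2-fold higher, and in 30.5% of all RefSeq promoters. The median GC content was 69.8% for the 8 promoters of higher members, 57.0% for the 6 of lower members and 60.0% for genes above background. The hypoxia response core was found in 5 of 8 promoters of higher and 3 of 6 of lower members, where 54.8% of genes above background hold it. An NF-kB match was found in 3 of the 42 promoters (8.24% of genes above background), a CRE in 1 (2.99%), a CArG box in 2 (1.17%), and neither a TATA box nor AP-1 in any (7.40% and 4.66%). These are letter matches and not binding sites.

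In the semaphorin group the members past 2-fold were all ligands. Sema3d, a secreted ligand that signals through neuropilins, had a signal of 191 units in control and 31.2 in transgenic, a 6.12-fold lower value with a scanner error of 0.26 log2. Its second probe read 141 units in control and 13.9 in transgenic, where it was not well above background. Both probes therefore placed the transgenic array below the control array. With normexp correction, which keeps an offset above background, the Sema3d difference was -1.53 log2 and with the authors' values -1.44 log2.

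Sema3e, a secreted ligand that binds plexin D1 without a neuropilin, was above background in control only, at 138 units against 15.5. This is 8.90-fold lower by the plain ratio of its signals, with a scanner error of 0.38 log2. With normexp correction the Sema3e bound was -1.49 log2. It ranked 111 from the largest among 781 bounds of genes detected in control only. Sema3a, which lies next to Sema3d on chromosome 4 with no protein-coding gene between them, was above background on neither array.

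The other secreted members were within 2-fold. Sema3c, known for its part in heart outflow and vessel development, had 775 units in control and 1211 in transgenic, a difference of 0.64 log2, and 0.30 log2 on its second probe. Sema3b, described as a tumour suppressor, differed by 0.24 log2 and Sema3g by 0.08 log2. Of the 4 class 3 genes measured on both arrays, 0 were at least 2-fold higher and 1 (25%) was lower, against 10.5% and 10.3% of all genes. So few genes cannot be set apart from those shares.

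Sema4b and Sema4c, transmembrane ligands of class 4, were higher in transgenic. Sema4c, a ligand of plexin B2, had 36.3 units in control and 182 in transgenic (5.02-fold, scanner error 0.25 log2, and 1.30 log2 with normexp correction). Sema4b had 942 units in control and 3334 in transgenic (3.54-fold, scanner error 0.20 log2, on a single spot). On its second probe Sema4b read 14.9 and 34.0 units, above background in transgenic only.

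Sema4f was the class 4 gene that pointed the other way, at 58.3 units in control and 21.3 in transgenic. It was above background in control only, 2.74-fold lower by the plain ratio of its signals. With normexp background correction its bound was -0.58 log2 and with the authors' processed values -0.40 log2, both within 2-fold. Sema4a and Sema4g differed by 0.25 and 0.34 log2, and Sema4d, the ligand of plexin B1, was above background on neither array. All 4 class 4 genes measured on both arrays lay above 0 (median 1.08 log2), where 7069 of all 15501 genes did. Sema4f is not among these 4, and the scanner error of Sema4a and of Sema4g was 0.20 log2.

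Sema7a, which is anchored to the membrane by a lipid and binds integrin beta1 and plexin C1, had 170 units in control and 30.4 in transgenic. This is 5.61-fold lower, with a scanner error of 0.25 log2 and a spot SD of 0.52 log2 on the transgenic array. With normexp correction its difference was -1.49 log2. Itgb1, the beta1 integrin chain, was 2.48-fold lower. Sema5a, which carries thrombospondin repeats, differed by -0.70 log2.

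The class 6 semaphorins are transmembrane ligands of plexin A receptors. Sema6d was above background in transgenic only on its brighter probe (44.1 units on a single spot, at least 2.88-fold higher). On its other probe it was above background on neither array. With normexp correction and with the authors' values the Sema6d bound was within 2-fold. Sema6c was -0.49 log2 on its brighter probe (73730 units in control, 52388 in transgenic) and 0.50 log2 on the other (136 and 191 units). The Sema6c probes thus had opposite signs, both within 2-fold. Sema6b differed by -0.43 log2.

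The semaphorin receptors that were measured stayed within 2-fold. Plxna1, Plxnb1, Plxnc1 and Plxnd1 matched no probe, among them the plexins named above for Sema4d, Sema7a and Sema3e. Plxnb2, the receptor of Sema4c, had 2266 units in control and 2032 in transgenic, a difference of -0.16 log2 that is smaller than its scanner error of 0.20 log2. Nrp1 and Nrp2, the neuropilins, differed by 0.18 and -0.03 log2, and Plxna2 by 0.02 log2. Plxna3 was above background in transgenic only, at 17.7 and 21.8 units, and Plxnb3 on neither array. The 12 ligands measured on both arrays thus spanned -2.61 to 2.33 log2, and the 4 receptors so measured spanned -0.16 to 0.18 log2. The group's median was 0.05 log2 over 16 genes (1.16 log2 with spike-in scaling). Of the 16, 2 (12.5%) were at least 2-fold higher and 2 (12.5%) lower, near the 10.5% and 10.3% of all genes.

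**Figure D2:**
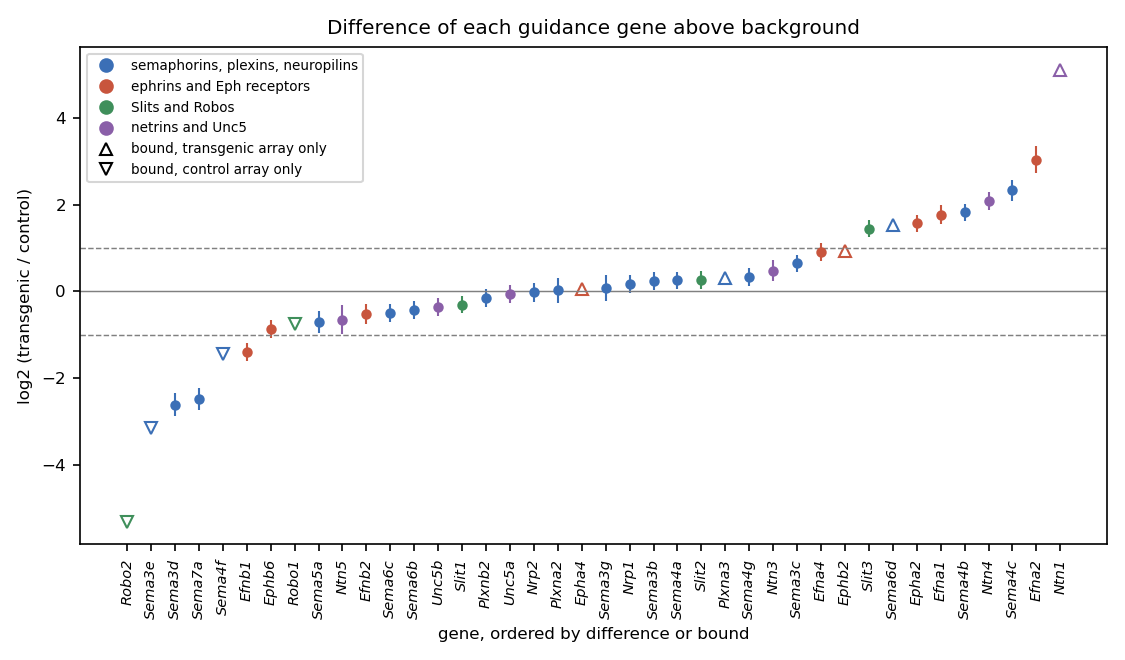
Difference of each of the 40 measured members as log2 of transgenic over control. Bars give the scanner software's error for the 31 above background on both arrays, and open triangles give bounds where only 1 array was. Dashed lines mark 2-fold; Ntn1 is at the upper end with a bound of 5.12 log2 and Robo2 at the lower end with -5.31 log2.

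In the ephrin group the A-class and B-class genes above background on both arrays lay on opposite sides of 0, a split chosen after the values were seen. Ephb2, a B-class receptor detected in transgenic only, did not follow it. Efna2, an A ephrin, had 25.5 units in control and 210 in transgenic (8.24-fold, scanner error 0.31 log2), on a single spot. Its second probe was above background on neither array and read 16.2 and 4.99 units, in the other direction. The Efna2 value thus rests on 1 spot of 1 probe, and with normexp correction it was 1.51 log2.

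Efna1, the ephrin that activates EphA2 and is known as a cytokine-induced gene, had 76.8 units in control and 261 in transgenic, a difference of 1.77 log2 (1.12 log2 with normexp correction). Epha2, its receptor kinase, had 2022 units in control and 5998 in transgenic. This 2.97-fold difference was read from 10 spots with an SD of 0.03 log2 in control and 0.06 log2 in transgenic. On its second probe Epha2 was above background in transgenic only, at 90.5 units. On their brighter or single probes both ends of this ligand and receptor pair were thus past 2-fold higher in transgenic.

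Efna4 stayed just under the size rule, at 218 and 411 units (1.88-fold higher). Efna1 and Efna4 lie in 1 cluster on chromosome 2, separated by Efna3, which matched no probe. All 4 A-class genes measured on both arrays were above 0, where 7069 of all 15501 genes were. The median of these 4 was 1.67 log2 (2.78 log2 with spike-in scaling). It was 1.31 log2 with normexp correction and 1.365 with the authors' values. Over all 10 A-class genes, without a filter on dim probes, the median was 0.49 log2.

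Efnb1, a transmembrane ephrin, had 565 units in control and 214 in transgenic (2.63-fold lower). Efnb2, best known as the arterial marker among ephrins, differed by -0.53 log2. Ephb6, an Eph receptor without kinase activity, had 938 and 513 units (-0.87 log2). All 3 B-class genes measured on both arrays were below 0, where 8432 of all 15501 genes were. The median of these 3 was -0.87 log2. With E1A spike-in scaling their median was 0.24 log2 and Efnb1 -0.29 log2, so the direction of the B class holds only relative to the bulk of genes.

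Ephb2 was above background in transgenic only, at 11.5 and 29.0 units (at least 1.90-fold higher). This bound was 0.92 log2, and it was 0.12 log2 with normexp correction, 0.31 with the authors' values and just past 2-fold with quantile (1.03) and loess scaling (1.02). Epha4 was likewise above background in transgenic only, but its signals of 17.0 and 17.8 units were nearly equal. Efna5, Efnb3, Epha1, Epha3, Epha5, Epha7 and Ephb1 were above background on neither array. Of the 7 genes of the group measured on both arrays, 3 (42.9%) were at least 2-fold higher and 1 (14.3%) lower. Among all genes 10.5% were higher and 10.3% lower. The group's median was 0.91 log2 over these 7 genes. Among genes above the median signal of the array it was 0.19 log2, and without a filter on dim probes -0.05 log2.

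In the Slit group the ligands were well above background on both arrays and the receptors were detected in control only. Slit2, the best-studied Slit, had 5990 units in control and 7210 in transgenic (0.27 log2, and 0.42 log2 on its second probe). Slit3 had 2907 and 7935 units, 2.73-fold higher with a scanner error of 0.20 log2. Slit1 differed by -0.30 log2.

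Robo2, a receptor of the Slits, had 532 units in control and 7.49 in transgenic. It was at least 39.8-fold lower, which ranked 26 among the 781 bounds of genes detected in control only. Its second probe read 41.9 units in control and 3.66 in transgenic, again above background in control only. Both Robo2 probes thus gave a signal in control and none well above background in transgenic.

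Robo1 had 22.3 units in control and 11.2 in transgenic, above background in control only and at least 1.67-fold lower. Robo1 and Robo2 lie on chromosome 11 with 1 protein-coding gene between them. With E1A spike-in scaling the bound of Robo2 was -4.20 log2, with normexp correction -3.31 log2 and with the authors' values -3.21 log2. The Robo1 bound turned to 0.37 log2 with spike-in scaling.

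In the netrin group the difference lay in the ligands Ntn1 and Ntn4. Ntn1, the founding netrin, had 4.17 units in control and 531 in transgenic, on 2 spots with an SD of 0.07 log2 on each array. It was at least 34.7-fold higher, ranking 54 among 931 bounds of genes detected in transgenic only. With normexp correction its bound was 2.82 log2 and with the authors' values 2.91 log2.

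Ntn4, a netrin of basement membranes that binds laminin, had 164 units in control and 693 in transgenic. It was 4.23-fold higher on a single spot, with 1.84 log2 on its second probe (62.1 and 223 units). Both Ntn4 probes were thus above background on both arrays and past 2-fold in the same direction. Ntn3 and Ntn5 differed by 0.48 and -0.66 log2, and the Ntn5 value had the largest scanner error among the 31 members above background on both arrays (0.34 log2).

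The netrin receptors that matched a probe were within 2-fold or not detected. Neogenin and Unc5d matched no probe. Unc5b, which is known in vessels, had 478 and 372 units (-0.36 log2), and Unc5a had 160 and 154 units (-0.05 log2). Unc5c and Unc5cl were above background on neither array, and neither was Dcc, the receptor through which netrin attracts axons. The group's median was -0.05 log2 over 5 genes.

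**Figure D3:**
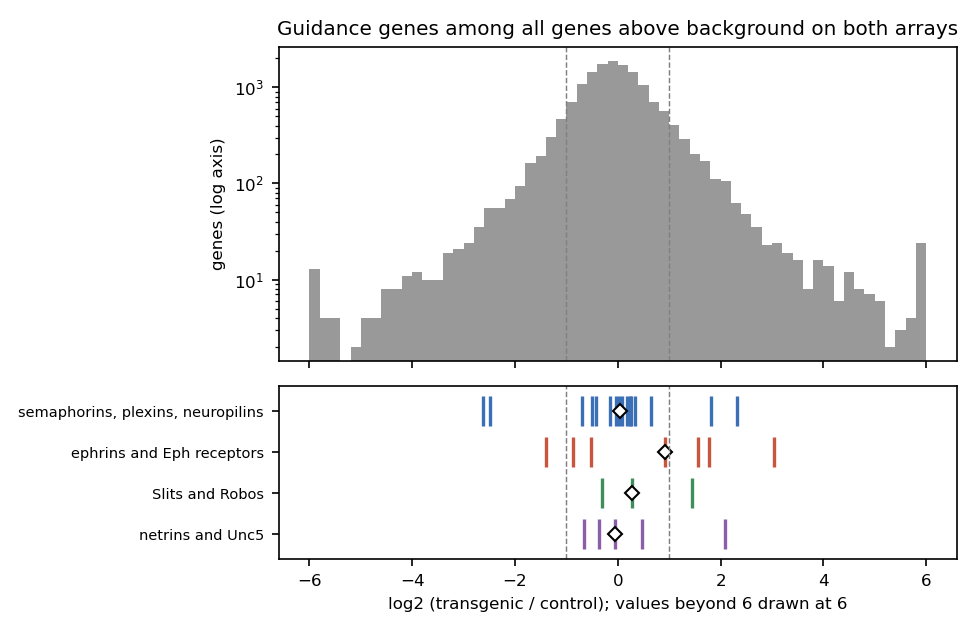
Upper panel, number of genes (log axis) at each difference, as log2 of transgenic over control, for the 15501 genes or unmatched transcripts above background on both arrays. Lower panel, the 31 members by family as ticks with the family median as a diamond: 0.05 (semaphorin), 0.91 (ephrin), 0.27 (Slit) and -0.05 log2 (netrin); dashed lines mark 2-fold.

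By role, 6 of 23 ligands measured on both arrays were at least 2-fold higher and 3 lower, and 1 of 8 receptors was higher and 0 lower. These are 26.1% and 13.04% of the ligands and 12.5% and 0% of the receptors, against 10.5% and 10.3% of all genes. Ntn1 and Sema6d (higher) and Sema3e and Sema4f (lower) add ligands past 2-fold by their bound, and Robo2 adds a receptor. The median difference was 0.25 log2 over ligands and -0.04 log2 over receptors. No difference between the 4 families or between the roles was tested, since 1 array per group allows none.

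Of the 15 members with 2 probes, 8 had both above background on at least 1 array. Of these, 7 had the same sign on both probes and Sema6c did not. The values used for Sema3g, Sema4b, Sema4g, Sema6c, Sema6d, Efna2, Ephb2 and Ntn4 came from a single spot per array. Over the 31 members above background on both arrays the scanner's error of a difference ranged from 0.20 to 0.34 log2, with a median of 0.21. This technical error says nothing of the spread between animals or cultures.

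**Figure D4:**
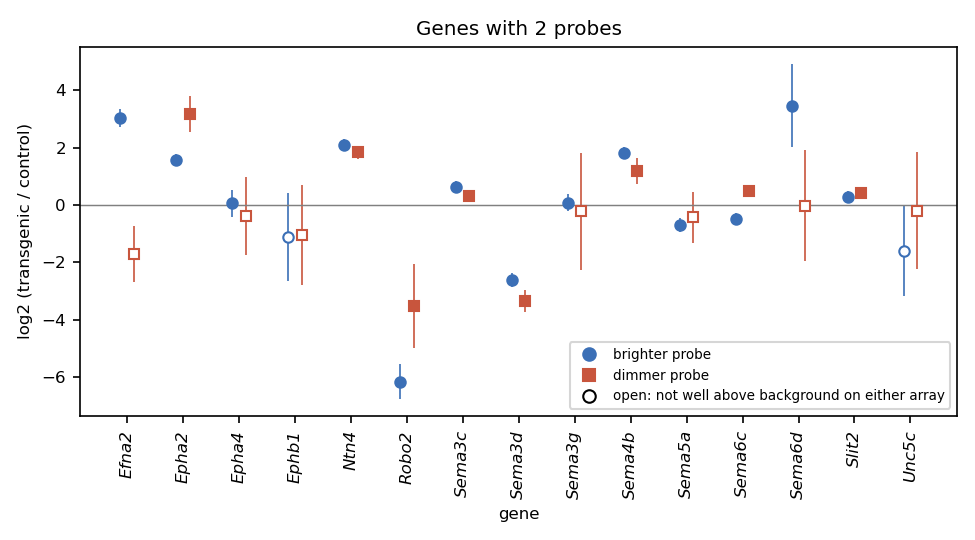
Difference (log2 of transgenic over control) of each probe for the 15 members with 2 probes, circles for the brighter and squares for the dimmer probe, bars for the scanner software's error and open symbols where the probe was above background on neither array. Robo2, Sema3d, Ntn4, Epha2 and Sema4b lie on the same side of 0 on both probes, whereas the 2 Sema6c probes do not.

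Among co-receptors and other guidance cues outside the families, 14 were above background on both arrays. Of these 6 were at least 2-fold lower (42.9%, against 10.3% of all genes), 0 were higher (against 10.5%) and 8 were within 2-fold. Their median of -0.86 log2 became 0.25 log2 with spike-in scaling. This list and that of the signal transducers below were chosen with earlier results of these data known, so their shares only describe them. Plxdc2, a plexin domain protein, was 9.23-fold lower (32907 and 3567 units). The integrin chain Itga1 was 8.01-fold lower. Rgma, the repulsive guidance molecule that binds neogenin, was 2.74-fold lower, at 2852 and 1043 units. Timd2 was 2.43-fold and Plxdc1 2.37-fold lower, while Mst1r and Flrt2, a ligand of Unc5 receptors, differed by -0.86 log2 each.

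Trem2, a myeloid receptor that can partner with plexin A1, was above background in control only, at 854 and 9.11 units (at least 63.9-fold lower). Flrt3, a further Unc5 ligand, was also above background in control only, 7.48-fold lower by the plain ratio of its signals. Met, the receptor of hepatocyte growth factor, was above background in transgenic only (1.46-fold higher by the plain ratio).

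Of 68 signal transducers measured on both arrays, 7 (10.3%) were past 2-fold on the high side and 13 (19.1%) on the low side, against 10.5% and 10.3% of all genes. Their median of -0.22 log2 became 0.89 log2 with spike-in scaling. Rnd1, a small GTPase that binds plexins, and its relative Rnd3 differed in opposite directions. Rnd1 had 29.2 units in control and 313 in transgenic (10.7-fold higher), and Rnd3 had 1070 and 181 units (5.90-fold lower). Ptk2, the focal adhesion kinase, was 4.96-fold lower and its relative Ptk2b 3.03-fold higher.

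Map1b, a microtubule-binding protein of growing axons, was 4.46-fold lower, Pdlim5 3.34-fold, the kinase Pak3 2.97-fold and the GTPase Rras2 2.82-fold lower. Rac2, a Rac of blood cells, was above background in control only (205 and 3.71 units, at least 15.3-fold lower), as was Cdk5r1 (at least 2.42-fold lower). Vav3, a guanine nucleotide exchange factor, was above background in transgenic only (at least 2.24-fold higher).

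Markers of the stromal cells and of other cell types moved between the arrays as well. The summed signal of the 16 stromal markers was 481550 units in control and 257350 in transgenic. Sums of this kind follow the brightest genes, here Col1a2 (194670 and 92097 units) and Col1a1 (111310 and 72898). The median difference over the stromal markers above background on both arrays was 0.43 log2. Of the 14 above background on both arrays, 5 (35.7%) were at least 2-fold higher and 4 (28.6%) lower. Among all genes 10.5% were higher and 10.3% lower, the shares to set beside this and the following counts. Of 15 macrophage markers, 10 were above background on both arrays, with 6 at least 2-fold lower and 2 higher, and 3 more were above background in control only. Their summed signal was 18131 units in control and 4695 in transgenic, and Lyz2 was 151-fold lower while Cd14 and Cd68 were higher by 1.78 and 1.58 log2. Of 14 endothelial markers 12 were on the array and 4 were measured on both arrays, 0 higher and 2 lower. The summed signal of these 12 was 1050 and 338 units, of which Erg alone gave 556 and 26.4 (21.0-fold lower). For 8 smooth muscle and pericyte markers the summed signal was 362580 and 107860 units, with 5 of 7 lower. Tagln alone gave 208620 and 77763 units of that sum. For the 13 of 14 neural and glial markers on the array the sum was 28186 and 9187 units, with 2 of 5 lower and 1 higher. Uchl1 alone gave 22668 and 6029 units of it. Of 10 lymphocyte markers 8 were on the array. Cd3d was above background on both arrays (0.04 log2), Nkg7 in transgenic only, Cd3g in control only (60.2 and 3.99 units, at least 4.50-fold lower, named after its value was seen) and 5 on neither. The part of these cell types in the differences of Robo2, Ntn1, Trem2, Rac2 and the other genes above was not tested.

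**Figure D5:**
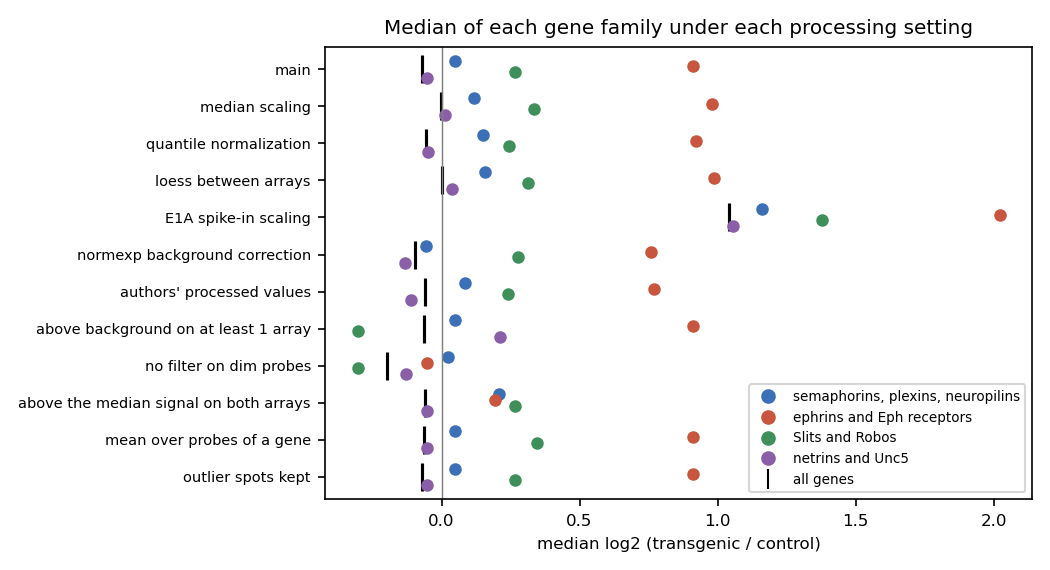
Median difference (log2 of transgenic over control) of the 4 families under the main processing and 11 alternatives, with a vertical tick for the median of all genes above the same filter. E1A spike-in scaling moves all families and all genes upward together (all genes to 1.04 log2). The filter on dim probes moves the ephrin, Slit and netrin medians.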

How the data were processed

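Total RNA of stromal cells was labelled with Cy3 and hybridised to 1-colour Agilent rat arrays, 1 per group. The deposited scanner files hold spot intensity on a linear scale with flags for outlier and background spots. Background subtraction and removal of spatial trends were done in Agilent Feature Extraction 11.0.1.1, per the file headers, with no normalization between arrays. The authors also deposited processed log2 values for 23153 probes, whose normalization and centring are not given in the sources used here. Their column medians were 7.20 in control and 7.18 in transgenic. Over 13619 probes the differences in the authors' values and in the scanner signals had r = 0.978 with a positive slope of 0.815. A small difference could change sign, as for Nrp2 (-0.03 log2 in the main processing and 0.01 with the authors' values). The authors' values served as an alternative.

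Outlier-flagged spots (446 of 58717 in control, 505 in transgenic) were left out, log2 processed signals were averaged per probe, and the 75th percentile of each array was set equal. A probe was well above background when more than 50% of its spots were flagged so. No spot was saturated. Accessions without versions were matched to the RefSeq table of GRCr8, which named 18005 of 30366 probes. The array design names an older build, so no probe coordinates are given. Each gene was read from its brightest probe by mean signal, and a 2-fold size rule took the place of a test. Members and lists were chosen with earlier results of these data known. All members could be named; from the co-receptor and transducer lists up to 8 genes by difference and up to 3 by bound were named, and of the cell type markers up to 4 per list by mean signal and those below background.

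The scripts were tested on simulated data. Python 3.11.15 and limma 3.58.1 (R 4.3.3) were used. Alternatives were median, quantile, loess and E1A spike-in scaling (8 spike-in probes), normexp background correction with an offset of 50 on median spot signals (a mean spot signal was planned but the files used hold the median), the authors' values, looser and stricter filters on low signal, averaging a gene's probes, outlier spots kept, and size rules of 1.5-fold and 3-fold. The average over a gene's probes took only those above background on both arrays. The number of arrays limits the precision.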

Additional observations from a re-analysis of the deposited data

How the results depend on the processing

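Of the 15 members past 2-fold, all 15 stayed so in the same direction with median, quantile or loess scaling and with outlier spots kept. With spike-in scaling 13 did (not Efnb1 and Sema4f), and 13 with normexp correction and with the authors' values (not Sema4f and Sema6d). The mean over probes took only probes above background on both arrays, so of the 15 it could change Ntn4 alone (1.96 log2). For the other called members its result was therefore fixed in advance. With spike-in scaling the medians were 1.16 log2 (semaphorin group), 2.02 (ephrin), 1.38 (Slit), 1.06 (netrin), 1.19 (all members), 0.25 (co-receptors) and 0.89 (signal transducers), 19 members were higher, and 8109 of all genes were higher and 332 lower. The co-receptor median was -0.58 log2 with normexp correction, -0.465 with the authors' values and -0.35 with no filter. The authors' table, with fewer genes, gave 907 higher and 909 lower. With genes above background on at least 1 array the Slit median was -0.30 log2, the netrin median 0.21 and 7 members were lower. With no filter the ephrin median was -0.054 log2, the Slit median -0.30, 12 members were higher and 10 lower, and 2674 and 2899 of all genes. Above the median signal the ephrin median was 0.19 log2, and of 22 members 5 were higher and 1 was lower. At 1.5-fold 6 members were lower, and 2954 and 3488 of all genes were higher and lower; at 3-fold 747 and 638 were. No called value changed sign. No paired analysis was possible because each group had 1 array, and for the same reason no replicate could be left out. Signals near background limit Efna2, Sema4f, Sema6d and the bounds. Low signals on 1 array also limit the size of the differences of Sema3d, Sema7a and Sema4c. With normexp correction these were -1.53, -1.49 and 1.30 log2.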
